A study of Mus musculus with 2 samples.

Results

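Vitamin A handling in the mouse liver was followed through 9 genes of retinoid storage, transport, metabolism and signaling, Lrat, Rbp4, Bco1, Dhrs3, Rdh16, Aldh1a1, Aldh1a2, Rarb and Cyp26a1. They were chosen by gene symbol from the 32285 genes in the deposited matrices, and each symbol matched 1 row. Single-cell RNA-Seq had been performed on livers of WT mice and of N-LKO mice, with 1 library in each group. N-LKO mice lacked Nus1, the gene for NgBR, in hepatocytes, where albumin-driven Cre recombinase is active. NgBR is 1 of the subunits of cis-prenyltransferase, on which the synthesis of dolichol, a lipid needed for glycosylation, depends. Both groups were on a C57BL6 background per the study's methods and had been fed for 16 weeks on a diet named HFD in the sample titles and WD in the treatment labels. Per the study's methods, WT cells were equal parts of hepatocytes and nonparenchymal cells, and N-LKO cells also held a smaller part of cells from tumors. Genotype, tumor tissue, cell mixture and library therefore differed together and cannot be told apart. No test between the groups was possible, and every interval below is a 95% interval that covers counting error only.

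The liver holds most of the vitamin A of the body, and hepatic stellate cells (HSCs) keep it as retinyl esters in lipid droplets. Hepatocytes take up dietary retinoid first, pass retinol on to HSCs and release it into blood bound to retinol-binding protein. Retinol is oxidized to retinaldehyde and then to retinoic acid, which acts through nuclear receptors that pair with RXR on direct repeats of a short half-site, and CYP26 enzymes remove it. Loss of stored retinoid is a known feature of HSCs that become activated in injured liver.

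Rarb and Cyp26a1 are classical retinoic acid targets, and their promoters were the only member promoters in which a direct repeat spaced by 5 bases (DR5) was found. They are shown here because both genes are readouts of retinoic acid signaling among the members. RefSeq promoters of GRCm38.p6, from 250 bases before to 50 bases after each transcript start, were found for 9 of 9 members, as 13 windows. Repeats of the half-site AGGTCA, of its AGTTCA form, of its GGGTCA form or of its GGTTCA form, alike or mixed, were searched for on both strands with spacings of 1, 2 or 5 bases. A DR5 was found in 32 of 32851 promoters of the genome (0.0974%), a DR1 in 73 (0.222%) and a DR2 in 88 (0.268%), the last in none of the members. Capitals mark the repeat in each window, written 5′ to 3′ on the gene's strand. The repeat ended 36 bases before a transcript start of Rarb (minus strand, chr14:16575427-16575726). That start lies inside the gene span given further below and not at its 5′ end. In Cyp26a1 (plus strand, chr19:37697558-37697857) the repeat ended 15 bases before the start and reads in the opposite direction. The Bco1 promoter (plus strand, chr8:117095615-117095914) had a DR1, 43 bases before the start and also in the opposite direction. A matching sequence describes the promoter and not the binding of a receptor.
Rarb: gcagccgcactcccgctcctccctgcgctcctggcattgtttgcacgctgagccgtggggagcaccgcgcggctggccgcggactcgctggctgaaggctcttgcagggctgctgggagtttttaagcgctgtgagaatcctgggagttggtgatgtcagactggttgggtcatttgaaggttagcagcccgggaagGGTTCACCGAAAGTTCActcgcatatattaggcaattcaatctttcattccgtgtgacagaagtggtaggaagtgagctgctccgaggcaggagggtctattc
Cyp26a1: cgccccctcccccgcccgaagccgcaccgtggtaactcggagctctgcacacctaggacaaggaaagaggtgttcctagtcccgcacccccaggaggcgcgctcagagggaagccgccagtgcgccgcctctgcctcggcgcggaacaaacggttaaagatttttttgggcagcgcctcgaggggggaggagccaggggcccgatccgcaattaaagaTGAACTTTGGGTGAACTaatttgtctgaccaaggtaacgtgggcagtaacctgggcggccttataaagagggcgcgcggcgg
Bco1: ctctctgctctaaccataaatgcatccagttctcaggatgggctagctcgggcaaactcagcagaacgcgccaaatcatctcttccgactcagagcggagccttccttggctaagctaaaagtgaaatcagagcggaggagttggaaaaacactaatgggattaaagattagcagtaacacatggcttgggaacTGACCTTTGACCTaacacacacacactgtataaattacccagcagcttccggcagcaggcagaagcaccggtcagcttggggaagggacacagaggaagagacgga

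The libraries were of similar depth, with 85522287 UMIs (unique molecular identifiers, 1 per captured transcript) in WT and 87575064 in N-LKO. After filtering, 18431 WT and 19855 N-LKO cells remained, with medians of 1400 and 1455 UMIs per cell. The libraries shared 2499 of 100171 WT and 90147 N-LKO barcodes, and 121 of these were kept as cells in both (0.657% of cells in WT, 0.609% in N-LKO). The targeted gene Nus1 was measured at 73.0 CPM (UMIs of the gene in 1000000 UMIs of the same cells) in WT hepatocyte-like cells and 33.7 CPM in N-LKO (log2 ratio of N-LKO over WT -1.11, -1.31 to -0.93), and at 80.7 and 83.3 CPM in stellate-like cells (0.05, -0.35 to 0.44). A 3′ count need not fall to 0 when a 5′ exon is deleted, and RNA of other cells can be counted in the same droplets. The source of the Nus1 UMIs left in N-LKO hepatocyte-like cells was not tested. Cells were clustered without the retinoid genes and named from marker lists, and a class is called "-like" for that reason. Free RNA in the droplets was read from barcodes with under 500 UMIs, and its estimated share of the UMIs was 25.6% in WT and 35.7% in N-LKO stellate-like cells, and 81.3% and 39.7% in hepatocyte-like cells. In WT hepatocyte-like cells that estimate was too high for some genes, though not for most of the pathway. It gave 6486 CPM for Ttr and 535 CPM for Adh1, where 6037 and 477 CPM were measured. A WT level there that did not exceed free RNA therefore need not be free RNA alone. A level is said to exceed that which free RNA alone would give only where its whole interval lay above it.

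Before any division into cell types, 7 of the 9 genes were lower in the whole N-LKO library. Cyp26a1 was measured at 2.79 CPM in WT and at 0.845 CPM in N-LKO, from 239 and 74 UMIs (log2 ratio -1.72, -2.12 to -1.34). Aldh1a1 was at 695.9 and 270.2 CPM (-1.36, -1.39 to -1.34) and Lrat at 22.0 and 9.34 CPM (-1.24, -1.36 to -1.12). Rbp4 was at 1757 and 880.3 CPM (-1, -1.01 to -0.98). These 4 genes were between 1.996 and 3.29 times as high in WT, and none of their intervals reached 0. Smaller differences were measured for Bco1 (-0.31), Rarb (-0.18) and Dhrs3 (-0.10). Only Rdh16, at 29.9 and 46.9 CPM (0.65, 0.58 to 0.72), and Aldh1a2, at 1.31 and 1.87 CPM (0.51, 0.16 to 0.88), were higher in N-LKO. In these whole-library values fewer cells of a type and less RNA per cell cannot be told apart, and hepatocyte-like cells numbered 9924 in WT but 4056 in N-LKO. The values also count barcodes that did not pass the filters, with their free RNA. Kept cells held only 29066020 of the WT UMIs and 33222068 of the N-LKO UMIs.

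Lrat encodes lecithin:retinol acyltransferase, which esterifies retinol for storage. The gene lies on the minus strand at chr3:82892579-82903973 (GRCm38, as all gene positions here), where Rbm46os overlaps it on the opposite strand. In stellate-like cells, 934 Lrat UMIs in 905 WT cells gave 558 CPM (523 to 595), and 251 UMIs in 645 N-LKO cells gave 220.0 CPM (194 to 249). The level was 2.53-fold lower in N-LKO (log2 ratio -1.34, -1.55 to -1.14), and free RNA alone would give 2.23 and 2.22 CPM. Lrat was thus far above free RNA in both libraries and lower in N-LKO beyond counting error. After each cell was thinned to 1000 UMIs, 41.0% of WT (37.8 to 44.3) and 18.8% of N-LKO cells (15.8 to 22.0) held an Lrat UMI, against 59.0% and 25.7% before thinning. In hepatocyte-like cells, which should make little Lrat mRNA, the thinned shares were 0.977% and 0.320%. The median depths were 1695 and 1574 UMIs per stellate-like cell and 1519 and 1769 UMIs per hepatocyte-like cell. Stellate-like cells held 79.2% of the Lrat UMIs of all kept WT cells and 64.2% of those in N-LKO. The next class in order in WT was the endothelial-like cells at 17.96 CPM (13.0 to 24.2), and its interval overlapped that of the cholangiocyte-like cells at 12.7 CPM (3.46 to 32.5).

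The stellate-like cells of the 2 libraries were not alike in their stellate markers, which touches the Lrat difference. The 10 markers used to name HSCs, among them Reln and Dcn, summed to 9029 CPM in WT and to 5044 CPM in N-LKO, with 8 of 10 lower and none at 0. Ecm1 (log2 ratio -1.60) and Angptl6 (-1.39) were as much lower as Lrat, whereas Pdgfrb was higher (0.45). The median cell held 16 stellate marker UMIs in WT and 6 in N-LKO. Markers of endothelial cells were also present, at 3521 and 1678 CPM against 6956 and 4561 CPM in the endothelial-like cells themselves, with 8 of 8 lower in N-LKO and none at 0. The 7 Kupffer markers summed to 2430 and 1684 CPM, and the 7 portal fibroblast markers to 31.1 and 111 CPM. The 8 hepatocyte markers summed to 10950 and 6937 CPM, with 5 lower in N-LKO.

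The Lrat difference was therefore measured among cells with a like number of stellate marker UMIs. Under 5 such UMIs, Lrat was at 248 CPM in 55 WT cells and at 59.1 CPM in 266 N-LKO cells (log2 ratio -2.08, -2.97 to -1.15). From 5 to 9, it was 415 CPM in 139 cells and 117 CPM in 143 cells (-1.81, -2.50 to -1.20). From 10 to 19, it was 524.5 CPM in 402 cells and 326 CPM in 160 cells (-0.68, -1.03 to -0.36). In the cells with the most stellate marker RNA, 20 or more UMIs, Lrat was at 676 CPM in 309 WT cells and at 599 CPM in 76 N-LKO cells (-0.17, -0.50 to 0.14), a difference within counting error. The difference was thus largest in cells with few stellate marker UMIs, and cells with under 5 made up 41.2% of the stellate-like cells in N-LKO but 6.08% in WT. Per 1000 stellate marker UMIs, Lrat counted 61.8 in WT and 43.6 in N-LKO (-0.50, -0.71 to -0.30). In cells with no endothelial marker UMI, 167 in WT and 259 in N-LKO, Lrat was at 609 and 166 CPM (-1.87, -2.31 to -1.46). The stellate markers of those cells also lay further apart, at 11400 and 4744 CPM.

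**Figure D1:**
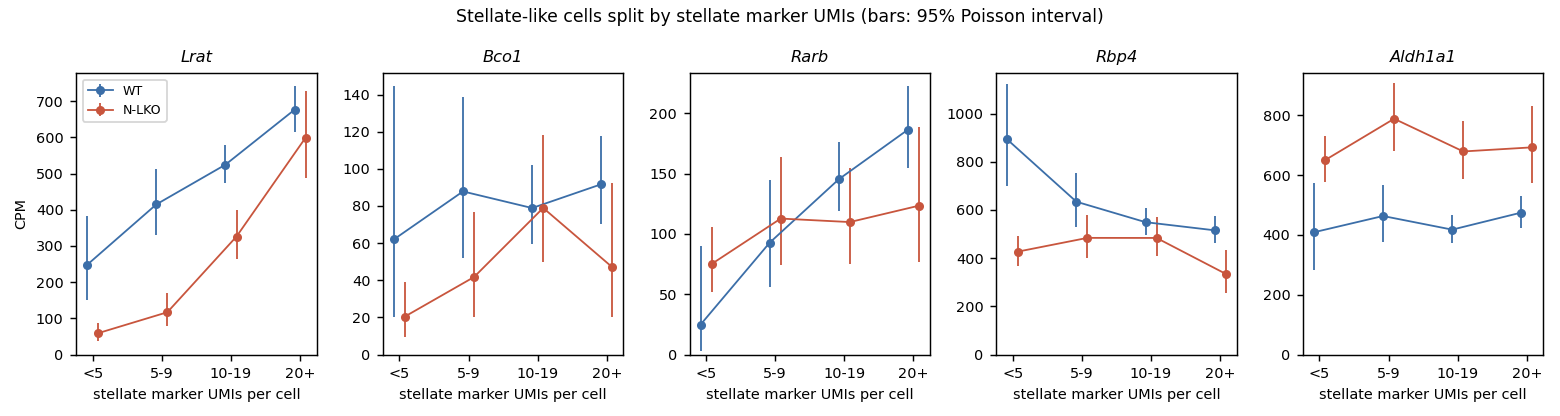
Level (CPM, vertical axis, from 0) of Lrat, Bco1, Rarb, Rbp4 and Aldh1a1 in stellate-like cells split by the stellate marker UMIs in a cell (horizontal axis), for WT and N-LKO with 95% Poisson intervals. Lrat was higher in WT in all 4 bins, and the 2 libraries came closest in the last bin (676 and 599 CPM), whereas Aldh1a1 was higher in N-LKO in each of them.

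Within the stellate-like cluster, a finer division gave 4 sub-clusters, and each library lay mostly in a different one. The sub-cluster led by Hhip held 459 WT but 11 N-LKO cells, with Lrat at 689 and 627 CPM (log2 ratio -0.07, -1.15 to 0.71). The one in which Lama2, Zbtb16 and Col1a1 were among the leading genes held 37 WT and 417 N-LKO cells, with Lrat at 537 and 278 CPM (-0.96, -1.44 to -0.42). Its 2 first genes were the immunoglobulin genes Igkc and Igha, which HSCs do not make. The next sub-cluster, led by the Kupffer genes Clec4f and Cd5l, had Lrat at 447 and 178 CPM in 407 and 143 cells (-1.31, -1.78 to -0.90). The last held 2 WT and 74 N-LKO cells with few stellate markers, and 7 Lrat UMIs in N-LKO against 0 in WT. Without the last 2, Lrat was at 675 CPM in 496 WT cells and at 287.5 CPM in 428 N-LKO cells (-1.23, -1.48 to -0.99). With 1 library in each group, a sub-cluster that is mostly 1 library may be that library and not a state of the cells.

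In hepatocyte-like cells Lrat was at the level of free RNA or near it. It was measured at 9.02 CPM (7.64 to 10.6) in WT, with 7.07 CPM from free RNA. In N-LKO it was at 2.87 CPM (1.84 to 4.27), with 2.47 CPM from free RNA. The WT level thus exceeded free RNA by little, and the N-LKO level did not. So near free RNA, the log2 ratio of -1.63 (-2.34 to -1.02) cannot be assigned to expression by these cells. With the Malat1-rich clusters described below left out, it was at 9.32 and 2.60 CPM. In endothelial-like cells, 43 and 21 UMIs gave 17.96 and 6.05 CPM (-1.55, -2.40 to -0.79), above free RNA at 4.15 and 3.03 CPM. Mesothelial-like cells, few in number, held 0 Lrat UMIs in 36 WT cells and 4 UMIs in 79 N-LKO cells.

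Rbp4 encodes the plasma carrier that takes retinol out of the liver (minus strand, chr19:38116629-38125281). Hepatocyte-like cells held 78.6% of its UMIs in the kept WT cells and 59.3% in N-LKO. Over all hepatocyte-like cells it was measured at 2244 CPM (2221 to 2267) in WT and at 2196 CPM (2165 to 2228) in N-LKO, a log2 ratio of -0.03. Free RNA alone would give 1724 CPM in WT but 460 CPM in N-LKO, and with free RNA subtracted the ratio was 0.57. That ratio depends on how the remaining UMIs are scaled to CPM, and it is not the ratio of the plain differences of these levels. The near equality of 2244 and 2196 CPM did not hold within the class. Clusters rich in Malat1, a nuclear noncoding RNA, by over 1.5 times the level of the class, held 322 WT but 1955 N-LKO hepatocyte-like cells. Rbp4 was at 1071 CPM in the WT and 579 CPM in the N-LKO cells of these clusters (-0.89, -1.01 to -0.76). In the other clusters it was at 2292 CPM in 9602 WT cells and at 3504 CPM in 2101 N-LKO cells (0.61, 0.59 to 0.64). Rbp4 was thus lower in N-LKO in the first set of cells and higher in the second, where Alb, the albumin gene, was at 22370 and 16250 CPM.

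Different clusters made up the hepatocyte-like cells of each library. In WT, 8301 cells were in a cluster led by Mup7 and other major urinary protein genes, where Rbp4 was at 2320 CPM. Another 1183 were in a smaller cluster also led by Mup7, with Car3 and Fabp1 among its 10 leading genes, at 1965 CPM. In N-LKO, 1988 cells were in a cluster led by A2ml1, with Rbp4 at 3472 CPM, and the 118 WT cells of that cluster had 2561 CPM. A further 1949 N-LKO cells and 1 WT cell formed a Malat1-rich cluster led by Tmem45b, with Rbp4 at 563 CPM. That cluster passed the naming rule narrowly, with 3 of 8 hepatocyte markers raised and a score of 0.207 where at least 0.2 was needed. The members measured in hepatocyte-like cells are therefore given with and without the Malat1-rich clusters. The 321 WT cells of the Malat1-rich cluster led by Gm12718 had 1073 CPM. Rbp4 did not exceed free RNA in stellate-like cells, at 563 CPM in WT (free RNA 544 CPM) and 440.0 CPM in N-LKO (free RNA 413 CPM). In WT it exceeded free RNA in 1 of 15 classes, the hepatocyte-like cells. In N-LKO it did so in 8 of 15, among them Kupffer-like, B-like and T and NK-like cells. Whether the free-RNA level serves equally well in both libraries was not tested.

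**Figure D2:**
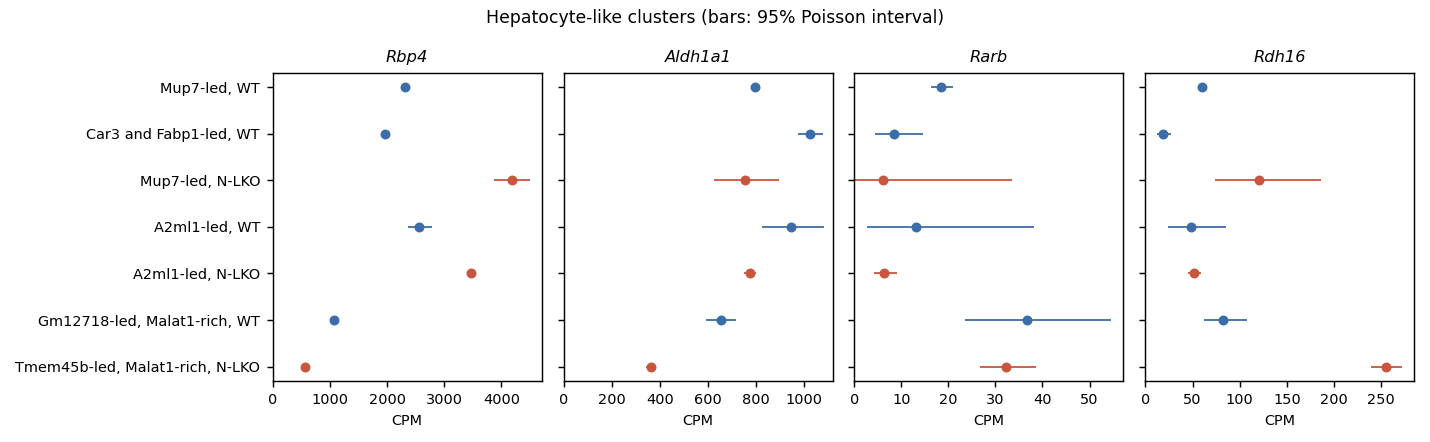
Level (CPM, horizontal axis, from 0) of Rbp4, Aldh1a1, Rarb and Rdh16 in the hepatocyte-like clusters of each library (rows), with 95% Poisson intervals. The row named for Car3 and Fabp1 is the smaller WT cluster, which was also led by Mup7. Rbp4 ran from 563 CPM in the Tmem45b-led N-LKO cells to 4182 CPM in the 95 Mup7-led N-LKO cells, and Rdh16 was highest in the Tmem45b-led N-LKO cells.

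Bco1 encodes the oxygenase that cleaves beta-carotene into retinaldehyde (plus strand, chr8:117095854-117133720). Its level was highest in stellate-like cells in both libraries. These held 48.1% of its UMIs in the kept WT cells but 22.5% in N-LKO, where hepatocyte-like cells held 34.2%. The level there was at 84.2 CPM (70.9 to 99.4) in WT and at 43.8 CPM (32.5 to 57.8) in N-LKO, from 141 and 50 UMIs (log2 ratio -0.93, -1.44 to -0.47), against 1.92 and 2.81 CPM from free RNA. Per 1000 stellate marker UMIs, Bco1 counted 9.33 and 8.69, and the log2 ratio was -0.09 (-0.60 to 0.37). In the 4 bins of stellate marker UMIs it was -1.66, -1.04, 0.02 and -0.89, with each interval reaching across 0. The lower level of Bco1 was thus of a size with that of the stellate markers as a whole. In hepatocyte-like cells Bco1 was at 5.97 CPM in WT, no more than the 6.07 CPM of free RNA, and at 9.09 CPM in N-LKO, above 3.13 CPM of free RNA (0.61, 0.16 to 1.05). In the clusters not rich in Malat1 it was at 6.03 and 6.93 CPM (0.22, -0.42 to 0.79), a difference within counting error.

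Dhrs3 encodes a reductase that turns retinaldehyde back into retinol (plus strand, chr4:144892827-144928209). It was spread over more classes than the other enzymes and exceeded free RNA in 12 of 15 classes in WT and 14 of 15 in N-LKO. In stellate-like cells it was at 149 CPM in WT and at 120.1 CPM in N-LKO (log2 ratio -0.31, -0.63 to -0.01), and in hepatocyte-like cells at 101 and 81.6 CPM (-0.31, -0.44 to -0.18), with 52.8 and 25.4 CPM from free RNA. Leaving out the Malat1-rich clusters gave 102 and 77.9 CPM (-0.38, -0.55 to -0.22). Endothelial-like cells had 174.6 CPM in WT, the highest level of any class there with an interval that overlapped that of stellate-like cells, and 113.5 CPM in N-LKO (-0.62, -0.82 to -0.42). The direction was the opposite in Kupffer-like cells, at 87.3 and 134.6 CPM (0.62, 0.41 to 0.85), in T and NK-like cells at 41.2 and 60.3 CPM (0.54, 0.13 to 0.98) and in cholangiocyte-like cells at 114 and 167 CPM (0.53, 0.02 to 1.12). Dhrs3 was therefore lower in N-LKO in hepatocyte-like and endothelial-like cells and higher in these 3 other classes. In stellate-like cells its direction turned with the measure. Per 1000 stellate marker UMIs it counted 16.6 in WT and 23.8 in N-LKO (0.53, 0.21 to 0.83), and in each of the 4 bins of stellate marker UMIs the interval reached across 0. In those with no endothelial marker UMI it was at 53.1 and 102 CPM (0.90, 0.02 to 1.96), the reverse of the value over all of them.

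Rdh16 encodes a microsomal retinol dehydrogenase of hepatocytes, which makes retinaldehyde and also oxidizes steroids (plus strand, chr10:127801152-127846565). In hepatocyte-like cells it had the highest ratio of N-LKO over WT among the members, at 57.2 CPM (53.6 to 60.9) in WT and at 144 CPM (136 to 153) in N-LKO (log2 ratio 1.34, 1.21 to 1.46), with 19.4 and 15.3 CPM from free RNA. The excess lay mostly in the Malat1-rich clusters, where Rdh16 was at 83.7 CPM in WT and at 255 CPM in N-LKO (1.59, 1.21 to 2.03). These were mainly the Gm12718-led cluster in WT and the Tmem45b-led one in N-LKO. In the other clusters together the levels were 56.1 and 55.2 CPM (-0.02, -0.23 to 0.18), which did not differ beyond counting error. Within the larger Mup7-led cluster, however, they were 59.96 CPM (56.0 to 64.1) in 8301 WT cells and 120.3 CPM (73.5 to 185.8) in 95 N-LKO cells, the latter from 20 UMIs. In the A2ml1-led cluster they were 48.0 and 51.95 CPM. Rdh16 was also higher in N-LKO outside hepatocytes, at 17.1 and 71.2 CPM in endothelial-like cells (2.04, 1.57 to 2.57), where free RNA would give 11.4 and 18.8 CPM. T and NK-like cells had 12.7 and 50.5 CPM (1.96, 1.32 to 2.75) against 11.8 and 17.9 CPM from free RNA. Stellate-like cells had 8.96 and 44.7 CPM (2.28, 1.46 to 3.26) against 6.12 and 13.8 CPM. Of the 51 N-LKO UMIs there, 36 came from the 74 cells of the low-marker sub-cluster (196 CPM), whose 10 leading genes share Grip1 and Pik3c2g with those of the Tmem45b-led hepatocyte-like cluster. The Kupffer-led and Lama2 sub-clusters, with 143 and 417 N-LKO cells, were at 13.99 and 16.8 CPM, close to free RNA. Rdh16 exceeded free RNA in 4 of 15 classes in WT and in 13 of 15 in N-LKO. The 13 included B, plasma, erythroid and neutrophil-like cells, so the excess was not particular to a cell type. Outside hepatocyte-like cells the free-RNA level was scaled with hepatocyte markers. Of these, Alb was at 4141 CPM in the Tmem45b-led and 16320 CPM in the A2ml1-led N-LKO cells. Whether that free-RNA level is too low for Rdh16 in N-LKO was not tested. The 8 hepatocyte markers were lower in N-LKO by a like ratio in stellate-like (-0.66) and hepatocyte-like cells (-0.70), and their part in the Rdh16 values was not tested. Without the Kupffer-led and low-marker sub-clusters, Rdh16 in stellate-like cells was at 4.84 and 16.4 CPM, from few UMIs (1.65, 0.00 to 3.87).

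The lobular position of the hepatocyte-like cells was read from 12 zonation markers, 6 pericentral and 6 periportal, and cells were divided in both libraries at the same pericentral shares of 11.1% and 50% of the marker UMIs. Between periportal and pericentral cells, Glul went from 20.8 to 1424 CPM in WT and from 6.77 to 603 CPM in N-LKO. Glul is itself among the pericentral markers that divided the cells, so its rise follows from the division and does not check it. Rdh16 was graded in WT, at 32.9 CPM in periportal, 54.8 CPM in middle and 89.95 CPM in pericentral cells (log2 ratio of pericentral over periportal 1.45, 1.19 to 1.72). In N-LKO the same levels were 152, 128 and 135 CPM (-0.17, -0.39 to 0.05), with no gradient beyond counting error. Without the Malat1-rich clusters the N-LKO levels were 43.0, 52.7 and 86.2 CPM (1.00, 0.56 to 1.44) and those of WT 32.3, 53.7 and 87.4 CPM (1.43, 1.17 to 1.71). The flat Rdh16 profile of N-LKO was therefore seen only with the Malat1-rich cells included. The cuts passed close to some cells, with 434 and 1173 of 13623 cells within 2 percentage points of them.

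**Figure D3:**
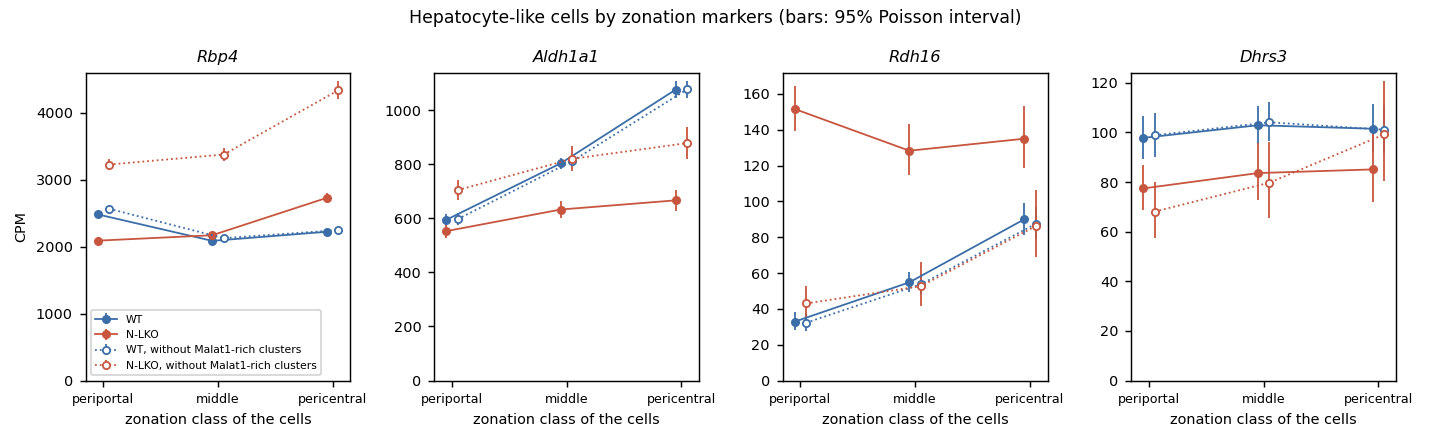
Level (CPM, vertical axis, from 0) of Rbp4, Aldh1a1, Rdh16 and Dhrs3 in periportal, middle and pericentral hepatocyte-like cells, with 95% Poisson intervals, for all such cells (solid lines) and without the Malat1-rich clusters (dotted lines, open points). The solid N-LKO line of Rdh16 was flat at 152, 128 and 135 CPM, and its dotted line, at 43.0, 52.7 and 86.2 CPM, ran beside that of WT.

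Aldh1a1 encodes a cytosolic retinaldehyde dehydrogenase, which makes retinoic acid (plus strand, chr19:20492715-20643465). It was graded toward the central vein in WT hepatocyte-like cells, at 594 CPM in periportal and 1076 CPM in pericentral cells (log2 ratio of pericentral over periportal 0.86, 0.79 to 0.92), and less so in N-LKO, at 553 and 667 CPM (0.27, 0.17 to 0.37). Without the Malat1-rich clusters the N-LKO levels were 704.5 and 878.5 CPM (0.32, 0.20 to 0.44), so the shallower profile was seen with and without them. Rbp4 took opposite slopes, at 2481 and 2221 CPM in WT (-0.16, -0.20 to -0.12) and 2088 and 2728 CPM in N-LKO (0.39, 0.33 to 0.44). Over all hepatocyte-like cells Aldh1a1 was at 811 CPM in WT and at 590.5 CPM in N-LKO (N-LKO over WT -0.46). Free RNA alone would give 658 CPM in WT but 121 CPM in N-LKO, and with free RNA subtracted the direction turned (0.44). As with Rbp4, that value depends on how the remaining UMIs are scaled and is not the ratio of the plain differences. In the clusters not rich in Malat1 Aldh1a1 was at 818 and 775 CPM (-0.08, -0.13 to -0.02).

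In stellate-like cells Aldh1a1 went against Lrat. It was at 446 CPM (414 to 479) in WT and at 693 CPM (646 to 743) in N-LKO, from 746 and 791 UMIs (log2 ratio 0.64, 0.49 to 0.78). Free RNA alone would give 207 CPM in WT, against 109 CPM in N-LKO. The thinned share of cells with an Aldh1a1 UMI was 35.2% in WT (32.1 to 38.5) and 49.1% in N-LKO (45.2 to 53.1), and before thinning it was 51.6% and 64.5%. It was higher in N-LKO in all 4 bins of stellate marker UMIs, with log2 ratios of 0.65 (0.15 to 1.24), 0.76 (0.40 to 1.14), 0.70 (0.44 to 0.96) and 0.55 (0.23 to 0.85). In the sub-cluster with Lama2 and Col1a1 among its leading genes it was at 432 CPM in WT and at 848 CPM in N-LKO (0.95, 0.46 to 1.52), and in the Hhip-led one at 575 and 1140 CPM (1.02, 0.26 to 1.63). In the Kupffer-led sub-cluster it was at 333 and 381 CPM (0.20, -0.14 to 0.52), within counting error. Aldh1a1 was thus higher in N-LKO stellate-like cells in every bin of stellate marker UMIs, though not beyond counting error in every sub-cluster.

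In most other nonparenchymal classes Aldh1a1 was lower in N-LKO, as was the free RNA. Endothelial-like cells had 491 and 212 CPM (log2 ratio -1.21, -1.35 to -1.08) with 386 and 148 CPM from free RNA. Kupffer-like cells had 348 and 110.5 CPM (-1.66, -1.80 to -1.51) with 272 and 98.5 CPM from free RNA. Cholangiocyte-like cells were an exception, at 476 and 459 CPM (-0.05, -0.32 to 0.23), with 349 and 118 CPM from free RNA.

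Aldh1a2 encodes a retinaldehyde dehydrogenase known for retinoic acid synthesis in mesothelium and the embryo (plus strand, chr9:71215789-71296243). Its 39 UMIs in kept WT cells and 79 in N-LKO were few. The highest level in both libraries was in mesothelial-like cells, at 110.2 CPM (40.4 to 240) in 36 WT cells and at 104.5 CPM (55.6 to 179) in 79 N-LKO cells. In stellate-like cells there was 1 UMI in WT (0.598 CPM, 0.0151 to 3.33) and 7 in N-LKO (6.13 CPM, 2.47 to 12.6), with a log2 ratio of 2.87 and an interval of 0.40 to 8.85. Cholangiocyte-like cells held the most Aldh1a2 UMIs of any N-LKO class, 17 of 79 (18.1 CPM, 10.6 to 29.0), against 1 in WT (3.17 CPM), with a log2 ratio of 1.97 (-0.16 to 7.90). Conventional dendritic-like cells were at 14.1 CPM in WT and at 2.22 CPM in N-LKO from 5 and 2 UMIs, and monocyte and macrophage-like cells were at 10.3 and 5.22 CPM (-1, -2.29 to 0.36).

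Rarb encodes a retinoic acid receptor, and its own transcription is induced by retinoic acid (minus strand, chr14:16430839-16819156). Its level was highest in the same 3 classes in both libraries, and in WT the order was stellate-like cells at 149 CPM (131 to 169), endothelial-like cells at 122 CPM (108 to 137) and cholangiocyte-like cells at 88.9 CPM (59.0 to 128), with neighbors in that order overlapping. In N-LKO these classes had 99.0 CPM (81.6 to 119), 70.0 CPM (61.5 to 79.4) and 61.8 CPM (46.9 to 79.9), and here only the last 2 overlapped. All 3 were lower in N-LKO, with log2 ratios of -0.59 (-0.93 to -0.27), -0.80 (-1.05 to -0.55) and -0.54 (-1.20 to 0.18), and the last was within counting error. Per 1000 stellate marker UMIs, Rarb in stellate-like cells was 16.6 in WT and 19.6 in N-LKO (0.25, -0.09 to 0.57), and within the 4 bins of stellate marker UMIs the ratios were 1.30, 0.27, -0.39 and -0.57, each with an interval across 0. Hepatocyte-like cells had 18.3 and 17.95 CPM, with 7.17 and 5.34 CPM from free RNA, but in the clusters not rich in Malat1 Rarb was at 17.5 CPM in WT and at 6.28 CPM in N-LKO (-1.46, -2.09 to -0.93), from 282 and 29 UMIs. In the Malat1-rich clusters it was at 36.5 and 32.4 CPM (-0.20, -0.81 to 0.52). The Top2b gene and Gm48162 overlap Rarb on the opposite strand.

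Cyp26a1 encodes the hydroxylase that clears retinoic acid and is strongly induced by it in liver (plus strand, chr19:37697798-37701536). Only 73 UMIs in kept WT cells and 27 in N-LKO came from it. Hepatocyte-like cells had 54 UMIs in WT and 12 in N-LKO, at 3.22 CPM (2.42 to 4.21) and 1.44 CPM (0.742 to 2.51), a log2 ratio of -1.12 (-2.21 to -0.25). The WT level did not exceed the 3.19 CPM of free RNA, and the N-LKO level exceeded its 0.586 CPM. The clusters not rich in Malat1 had 3.17 and 1.73 CPM (-0.80, -2.16 to 0.21), within counting error. Stellate-like cells had 5 UMIs in WT and 0 in N-LKO, where a count of 0 is taken to allow up to 3 UMIs (2.63 CPM). At this depth no named class exceeded free RNA in WT, so Cyp26a1 could not be placed in a cell type there.

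**Figure D4:**
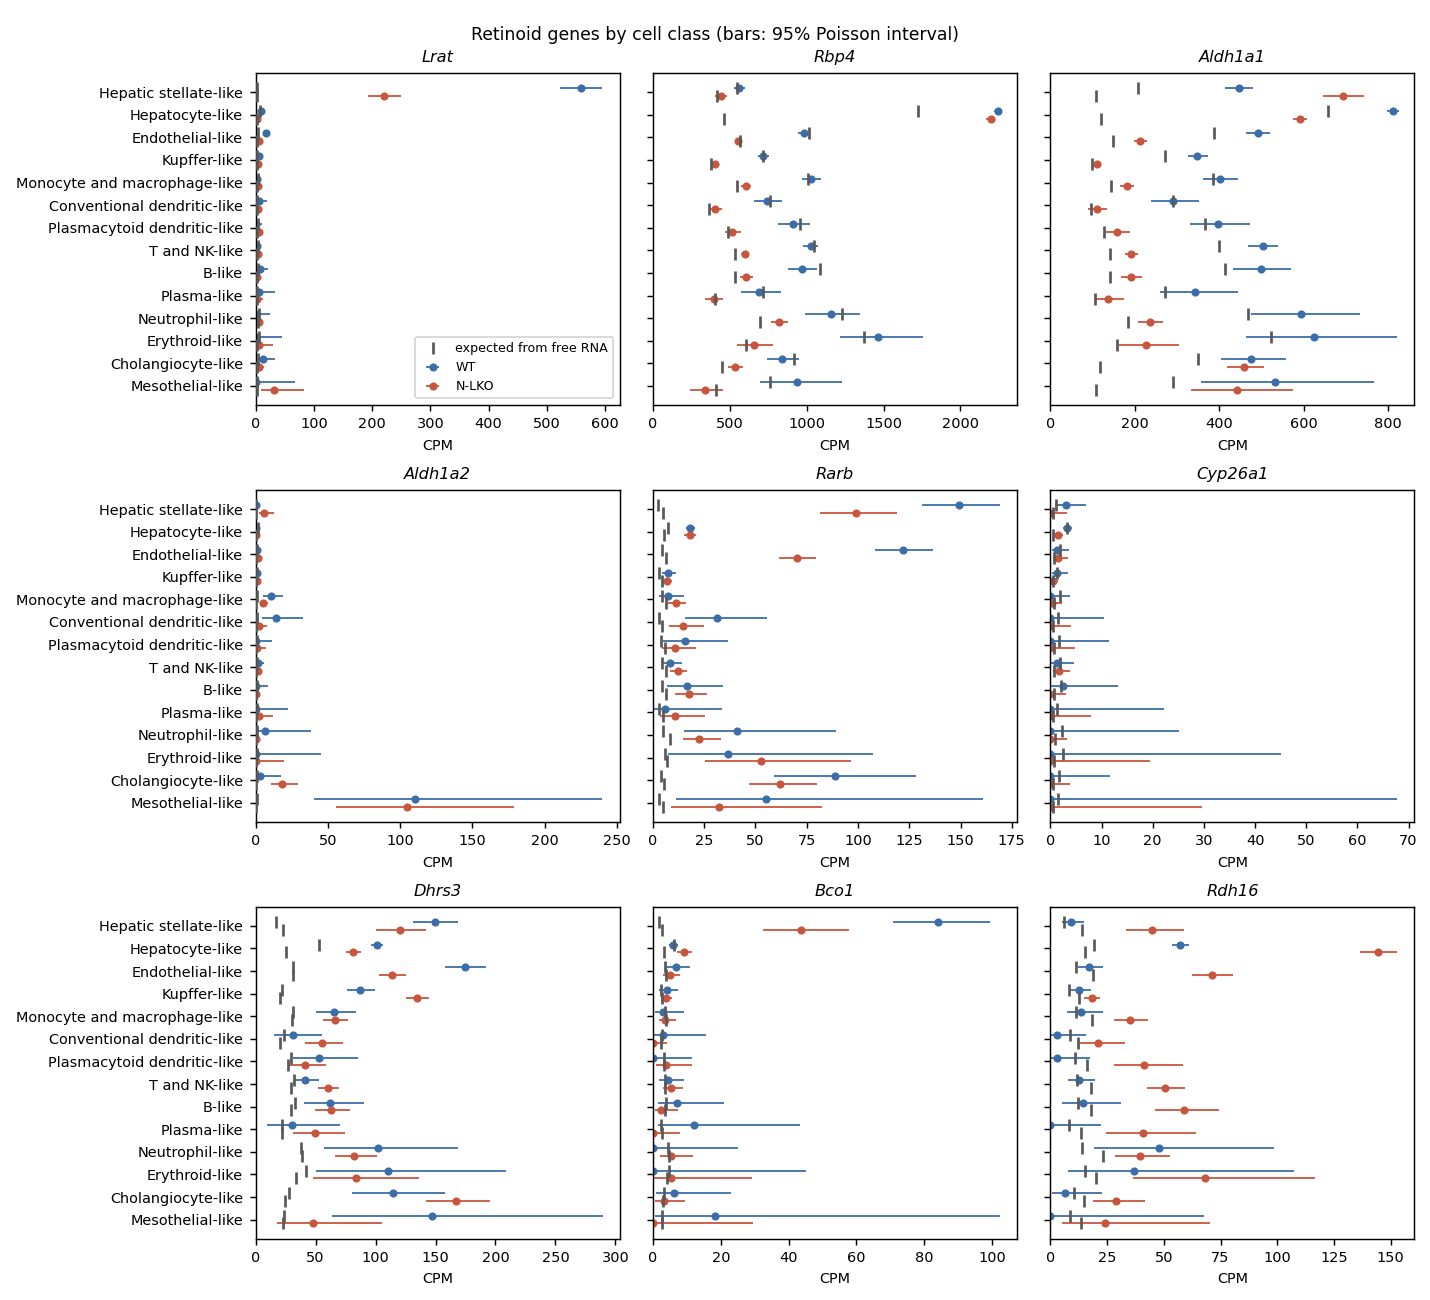
Level (CPM, horizontal axis, from 0) of each of the 9 genes in 14 cell classes (rows), WT and N-LKO, with 95% Poisson intervals and, as gray ticks, the level expected from free RNA alone. Lrat and Bco1 were highest in stellate-like cells, Rbp4 and Rdh16 in hepatocyte-like cells and Aldh1a2 in mesothelial-like cells, whereas Aldh1a1 was highest in hepatocyte-like cells in WT (811 CPM) and in stellate-like cells in N-LKO (693 CPM).

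Read as a list, the 9 genes did not move one way. A gene entered the count with at least 5 CPM in 1 or both libraries, and was called at a 2-fold difference. In stellate-like cells 8 members passed, and 1, Lrat, was called lower, where 7.99% of 12159 genes were, while 2, Aldh1a2 and Rdh16, were called higher, where 10.4% were. Aldh1a2 passed only through the library in which it was high. The median log2 ratio was -0.33 over the 8 members and -0.06 over all genes that passed. In hepatocyte-like cells 7 members passed, and 1 was called lower (Lrat, which passed only through WT and was near free RNA), where 2.38% of 10591 genes were, and 1 higher (Rdh16), where 20.6% were. The medians were -0.03 and 0.37. Nothing particular to these genes can be read from such small counts.

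Longer genes had higher ratios in both classes, so each member was also set beside genes of like length of gene body. Genes were divided by span into 10 groups of like size. Those in the group of Lrat (11.4 kb) had a median log2 ratio of -0.32 in stellate-like cells (quartiles -0.72 and 0.15), against -1.34 for Lrat. For the group of the longest genes, which holds Aldh1a1 (151 kb) and Rarb (388 kb), the median was 0.43 (0.03 and 0.94) in stellate-like and 0.98 (0.59 and 1.41) in hepatocyte-like cells. Aldh1a1 in stellate-like cells (0.64) lay within those quartiles, and Rarb (-0.59) lay below them. For genes of the span of Rdh16 (45.4 kb), the median was 0.04 (-0.28 and 0.45) in stellate-like cells and 0.52 (0.18 and 0.95) in hepatocyte-like cells, below the 2.28 and 1.34 of Rdh16. The part of gene length in these ratios was not tested.

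**Figure D5:**
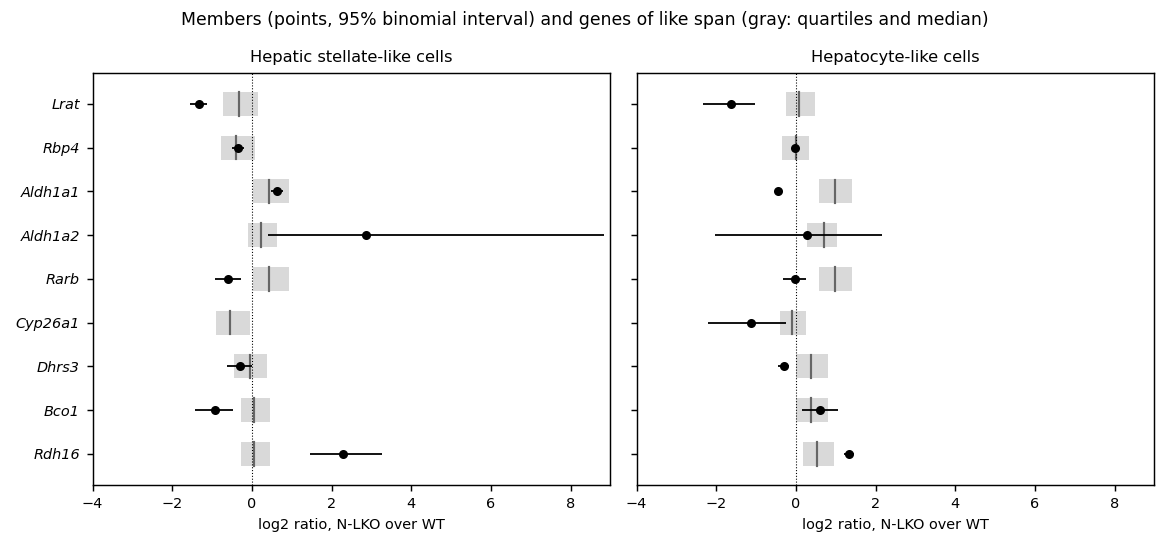
Log2 ratio of N-LKO over WT (horizontal axis) for each member in stellate-like and hepatocyte-like cells, as points with 95% intervals, over gray bars that give the quartiles and median of genes of like span in the same cells. In stellate-like cells Lrat (-1.34) lay below its gray bar and Rdh16 (2.28) above it.

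Of 49 other genes of the pathway, 36 passed the same minimum in stellate-like cells, with 4 at least 2-fold lower and 7 at least 2-fold higher in N-LKO (7.99% and 10.4% over all genes), and a median log2 ratio of 0.18 (-0.06 over all genes). The 1 with the most UMIs above free RNA among the lower ones was Cyp26b1, the retinoic acid hydroxylase of nonparenchymal cells. It was at 262 CPM (238 to 287) in WT and at 49.96 CPM (37.8 to 64.7) in N-LKO (-2.38, -2.81 to -1.99), against 4.90 and 5.09 CPM from free RNA, a larger ratio than that of Lrat. The other 3 lower genes were the dehydrogenases Adh1 (-1.22) and Adh4 (-1.15) and the retinol saturase Retsat (-1.30), which lay within 2-fold of free RNA. The higher ones were Aox1 at 42.4 and 98.2 CPM (1.21, 0.77 to 1.66), and, from at most 31 UMIs in either library, Stra6l (1.67), Rdh9 (1.62), Aldh1a3 (1.45), Dhrs9 (1.24), Rdh16f2 (1.17) and Rarres1 (1.02). The intervals of the last 4 reached across 0, and Rdh9, Aldh1a3, Dhrs9 and Rdh16f2 passed the minimum only through N-LKO, where they were high. The receptors Rara (0.14, -0.64 to 0.90) and Rxra (-0.24, -0.62 to 0.12) differed within counting error, as did Rdh10 (0.70, -0.09 to 1.51) and Rdh11 (0.07, -1.15 to 1.2). Ttr, the plasma partner of RBP4, was below its free-RNA level in both libraries.

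In hepatocyte-like cells 38 of the 49 passed, 3 were at least 2-fold lower and 6 at least 2-fold higher (2.38% and 20.6% over all genes), and the median was 0.16 (0.37 over all genes). Without the Malat1-rich clusters 36 passed, 3 were lower and 4 higher, and the median was -0.07, but several of the genes called were others. Over all hepatocyte-like cells the lower ones were Rdh7, a retinol dehydrogenase, at 422 and 200 CPM (-1.08, -1.16 to -1), Ces1d, a carboxylesterase that can hydrolyze retinyl esters, at 175 and 84.4 CPM (-1.06, -1.18 to -0.94), and Cyp26b1 at 18.03 and 5.14 CPM (-1.80), near free RNA at 15.5 and 5.67 CPM. Among the higher ones, Dhrs9 was at 6.33 and 31.5 CPM (2.31, 1.98 to 2.65) and Aox1, an aldehyde oxidase, at 69.2 and 203 CPM (1.55, 1.44 to 1.66). Without the Malat1-rich clusters Aox1 reversed, at 60.1 and 49.1 CPM (-0.29, -0.51 to -0.08), Rdh7 (-0.59) and Ces1d (-0.89) were no longer 2-fold lower, and Dhrs9 (1.87) and Cyp26b1 (-1.87) were still called. Also higher were the receptor Rarg (2.37, from 1.25 and 6.58 CPM), which passed the minimum only through N-LKO, where it was high, the acyltransferase Dgat1 (1.22) and the fatty acid-binding protein gene Fabp5 (1.11). With those clusters left out, Dgat1 was at 0.88 and Fabp5 at 1.39, and Rarg did not pass. Retsat was at 97.6 and 51.3 CPM (-0.93, -1.08 to -0.77) over all hepatocyte-like cells and at -0.41 without those clusters. Ttr was at 6037 and 5001 CPM (-0.27) over all of them, where free RNA alone would give 6486 and 1330 CPM. Without those clusters Ttr reversed to 0.35 (0.33 to 0.36). Stra6l, a hepatocyte receptor for RBP4, was at 78.9 and 83.8 CPM (0.09, -0.05 to 0.22), and at -0.15 (-0.33 to 0.03) without them. Rdh10 (0.21), Rdh11 (-0.30), Rara (0.39) and Rxra (0.34) differed by less than 2-fold.

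Over 22 points, the 11 classes with at least 100 cells in both libraries, the gene most like Lrat in its log2(CPM + 1) profile was the stellate marker Dcn (Pearson's r 0.94), and the gene most like Bco1 was Lrat (0.91). Rbp4 was most like Serpina1b (0.99), Rdh16 like Cyp4f15 (0.95) and Rarb like Actn4 (0.92). For Aldh1a1 it was Fxyd1 (0.88), for Dhrs3 Cd81 (0.85), for Cyp26a1 Ogdh (0.80) and for Aldh1a2 Cdon (0.68). The points share 2 libraries and their free RNA, and these values describe likeness of profile alone.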

How the data were processed

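UMI counts of 2 libraries (WT and N-LKO, 1 each) were analyzed. The authors made the deposited whole-number counts with Cell Ranger (7.1.0 per the file headers) from 10x 3′ v3 libraries. The submitters' processing notes name mm9, Cell Ranger and Seurat, and the annotation and the counting of introns were not given in the sources used here. Gene positions are those of the same Ensembl identifiers in GENCODE M21 (GRCm38). There were 0 columns of other samples.

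Barcodes with at least 1000 UMIs, at least 400 genes and at most 30% mitochondrial UMIs were kept, and those with a doublet score above 0.25 (8.57% in WT, 10.6% in N-LKO) were removed with scrublet in scanpy 1.11.5. No test for empty droplets was run. Leiden clustering (leidenalg 0.10.2, 30 components, 20 neighbors, resolution 0.3) used neither the members nor the 49 other pathway genes. Clusters were named from 18 marker lists by a mean score of at least 0.2 and at least 3 raised markers. A cluster in which another list scored over 0.75 of the best was called mixed (835 WT and 1933 N-LKO cells). These thresholds and the doublet score were set after the data were seen.

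UMIs were summed per class and library and given as CPM with exact Poisson intervals. Ratios had exact conditional binomial intervals, computed on the UMIs with 0.5 UMI added to the point value, and shares of cells Clopper-Pearson intervals (numpy 2.4.6, scipy 1.17.1). No ratio was given where both counts were at or under 3 UMIs or one was 0, and a count of 0 allows up to 3 UMIs. No p-value was computed, since each group was 1 library. The ratio code was tested on simulated data. Free RNA was scaled per class with hepatocyte markers, and in hepatocyte-like cells with markers of immune and endothelial cells. All members were named in the text, as were other pathway genes with at least 5 CPM and 2-fold, at most 8 in each direction and class, a fixed set (Ttr, Stra6l, Rdh10, Rdh11, Cyp26b1, Rara, Rxra and Retsat), and the genes most like each member. The values of 1 further gene of the pathway are not reported here. The members and lists were chosen with earlier results of these data known, and Lrat is among the genes the study itself examined in these HSCs, so its direction is not independent evidence. Reads of near-identical neighbors (Aldh1a1 and Aldh1a7, Rdh16 and Rdh16f2) could have been split or shared, and Rdh18-ps overlaps Rdh16, and Gm20694 Bco1, on the same strand.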

Additional observations from a re-analysis of the deposited data

How the results depend on the processing

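Every ratio here compares 1 library with 1 library, and depth limits Cyp26a1 and Aldh1a2 most. No paired analysis was possible because each group was 1 library. A minimum of 2000 UMIs left no stellate-like cluster, and the stellate-like cells were 1 cluster, so leaving out clusters rich or poor in Malat1 (by over 2 or under 0.5 times) removed none of them. Lrat in stellate-like cells was lower in N-LKO under all 16 alternatives, from a log2 ratio of -1.87 to -0.17, Rarb under 16 (-0.76 to -0.23), and Aldh1a1 was higher under 16 (0.43 to 1.49). Subsets of only the cells with under 10 stellate marker UMIs were not among these alternatives. There Rarb was higher in N-LKO (1.30 under 5 UMIs, 0.27 from 5 to 9), within counting error, and Lrat was at -2.08 and -1.81. The scale per stellate marker UMI was not among them either, and on it Rarb was at 0.25 and Lrat at -0.50. The cause of the changes below was not tested. With 500 UMIs as minimum, no mitochondrial limit, doublets kept, resolution 1.0 or the retinoid genes kept in the clustering, the hepatocyte-like class held 2098 to 2796 N-LKO cells in place of 4056.

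In stellate-like cells, Lrat moved to -1.06 with a mitochondrial limit of 10%, which left 1 member higher, in 441 WT and 67 N-LKO cells. Among subsets chosen after seeing the data, Lrat was at -1.87 in cells with no endothelial marker UMI (Dhrs3 reversed to 0.90, 2 members lower, 1 higher), at -0.68 with 10 to 19 stellate marker UMIs (Bco1 reversed to 0.02, 0 lower), and at -0.17 with 20 or more (Dhrs3 reversed to 0.20, 0 lower, 0 higher). With doublets kept, with genes of at least 1 UMI, or without the Kupffer-led and low-marker sub-clusters (also chosen after seeing the data), 2 members were lower. With free RNA subtracted, Rbp4 reversed to 0.67, a value that depends on how the remaining UMIs are scaled.

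In hepatocyte-like cells, Rbp4 reversed in 9 settings and Rdh16 in 4. With 500 UMIs as minimum, Rbp4 was at 0.50 and Bco1 at -0.08. With 2000 UMIs, Rbp4 was at 0.57, Aldh1a1 at 0.07 and Bco1 at -0.13. With doublets kept, Rbp4 was at 0.62 and Rdh16 at -0.003. At resolution 1.0, and with the retinoid genes kept in the clustering, Rbp4 was at 0.64 and Rdh16 at -0.04 in each. Without a mitochondrial limit Rbp4 was at 0.64. Without Malat1-rich clusters (chosen after seeing the data), Rbp4 was at 0.61 and Rdh16 at -0.02. In all of these settings 2 members were lower and 0 higher. With a mitochondrial limit of 10%, Rbp4 was at 0.76, Dhrs3 at 0.51 and 2 members were lower. With free RNA subtracted, Rbp4 was at 0.57 and Aldh1a1 at 0.44, values that depend on how the remaining UMIs are scaled. With genes of at least 1 UMI 2 members were lower, without clusters rich or poor in Malat1 3 were, and less the median of all genes 0 were higher. Over 17 log2 ratios, 249 values under alternatives were computed, of which 174 stayed within the interval of the value reported, 53 moved beyond it and 22 changed sign.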
